A study of Mus musculus with 6 samples.

Results

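Interferon-stimulated genes are the genes that cells switch on when an interferon binds its receptor. The genes described here are 39 such genes of the mouse, listed by symbol with earlier results of these data known: antiviral effectors, the OAS family, sensors of foreign nucleic acid, signalling and feedback genes, immunity GTPases, and a group of PARP and other genes. The Irf, Ifitm and MHC genes were left out of the choice. All 39 symbols were found among the 36083 genes of the deposited table, and 33 of them had a mean value of at least 1 over the 6 libraries, which was the minimum for testing.

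Type I interferons such as interferon beta signal through IFNAR1 and IFNAR2, the kinases JAK1 and TYK2, and the ISGF3 complex, which includes STAT2 and IRF9 and binds interferon-stimulated response elements in promoters. Interferon gamma signals through IFNGR1 and IFNGR2 and the kinases JAK1 and JAK2 to genes with GAS elements. Many interferon-stimulated genes are also transcribed at a steady low level in cells that meet no virus, and blood stem and progenitor cells are known for such intrinsic expression.

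The libraries came from blast crisis chronic myeloid leukaemia (bcCML), a mouse model in which stem and progenitor cells (Kit+ Lin- Sca1+, KLS) carry the BCR-ABL and NUP98-HOXA9 oncogenes. KLS cells were sorted from wild-type (WT) or Sdc1-/- mice on the C57BL/6 background, infected with both viruses and transplanted, per the labels, into NSG mice, which lack functional T, B and NK cells, whereas the general methods of the study name irradiated CD45.1 mice for primary transplants. Lin- leukaemic cells were sorted from the spleens, and polyA RNA was sequenced from 3 libraries per genotype. Sdc1 encodes syndecan-1, a heparan sulfate proteoglycan of the cell surface, and the allele used disrupts the sequence of its signal peptide. Both groups therefore share the oncogenes, the recipient strain named in the labels, the organ and the sort. By the labels they differ in the donor's genotype. They also differed in Y-linked genes, given below, so the sex of the donors may differ between the groups as well. Age, and which animal gave which library, are not given in the labels, and the study's description of the WT libraries calls them technical replicates, so the p-values below may measure technical spread alone.

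The libraries labelled Sdc1-/- did not hold less Sdc1 RNA. Sdc1 stood at 1.75, 1.21 and 1.51 in the libraries labelled WT and at 3.85, 3.80 and 4.12 in those labelled Sdc1-/-. All 3 libraries labelled Sdc1-/- were higher than all 3 labelled WT (limma log2 fold change 0.99 ± 0.093 SE, Benjamini-Hochberg adjusted p = 0.00012; two-sided exact permutation p = 0.1, below which a 3 against 3 design cannot go). The table gives 1 value per gene and does not show whether the protein is made. The study checked the deletion by PCR and by staining of the protein, which these files do not hold. Every direction below is given for libraries as they are labelled, and "higher" and "lower" mean in the libraries labelled Sdc1-/- against those labelled WT.

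Values are TPM, each transcript's length-scaled share of a library's reads, that the authors rescaled between libraries, so they are set per transcript length and levels can be compared between genes. Library sums were 1048875 to 1058263 in WT and 944973 to 951814 in Sdc1-/-. Read depth is unknown, and no counting interval can be given. All 8 markers of leukaemic progenitors were present, with summed values of 296 to 306 in WT and 338 to 345 in Sdc1-/-, and 5 of them were higher while Cd34, Ptprc and Flt3 were lower. Of the 8 neutrophil markers, all 8 were lower, with summed values of 12651 to 13599 in WT and 4587 to 4729 in Sdc1-/-, and none was at 0. Of the 8 tested monocyte and macrophage markers 7 were lower and Cx3cr1 was higher, and their 9 values summed to 568 to 590 in WT and 255 to 263 in Sdc1-/-. All 4 tested mast cell and basophil markers were lower (sums of 333 to 340 and 123 to 124), as were 5 of 6 erythroid markers (sums of 8665 to 9169 and 4927 to 5315). Of 10 mitochondrial genes 7 were higher, mt-Nd6 most, at 0.436 to 0.497 in WT and 14.1 to 18.4 in Sdc1-/-. T cell markers summed to 1.30 to 2.49 in WT and 2.24 to 2.76 in Sdc1-/-, and Cd3e was listed at 0 in all 3 WT libraries. For plasmacytoid dendritic cells, which make interferon in quantity, the markers summed to 12.6 to 13.6 in WT and 14.0 to 15.8 in Sdc1-/-, most of it Tcf4, and Siglech did not exceed 0.0790 in any library. All 4 Y-linked genes were higher, with sums of 0.276 to 0.308 in WT and 68.1 to 78.4 in Sdc1-/-, so that genotype and this difference cannot be told apart. The part of these markers and mitochondrial genes in the results below was not tested, and in bulk libraries fewer cells of a type and less RNA per cell cannot be told apart.

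The interferon-stimulated genes did not move as a block. Of the 33 tested, 15 were higher, 8 were lower and 10 did not pass the test (limma on log2(value + 1), Benjamini-Hochberg adjusted p under 0.05 over all 12155 genes tested). Over the whole table the same test called 60.7% of genes, 29.3% as higher and 31.3% as lower, so a called share of 69.7% among these genes lies near the background and is not by itself a result about them. Their median log2 fold change was 0.07 against -0.01 for all tested genes, and the median size of the change without its sign was 0.30 against 0.23. None of the 33 reached a 2-fold difference on this scale, which 4.83% of all tested genes did. The pseudocount of 1 shrinks changes of low genes more, and these genes were lower in level (median 4.31 against 14.3). By the ratio of means Zbp1 (2.39-fold) and Rsad2 (2.52-fold) fell by more than that, and the largest rise was 1.91-fold, for Stat2. The 2 shares are therefore not like for like. In all 23 called genes the values of the groups did not overlap (over the whole table this held for 66.7% of genes, 32.6% with Sdc1-/- above WT and 34.2% with Sdc1-/- below), and in the 10 others they did.

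**Figure D1:**
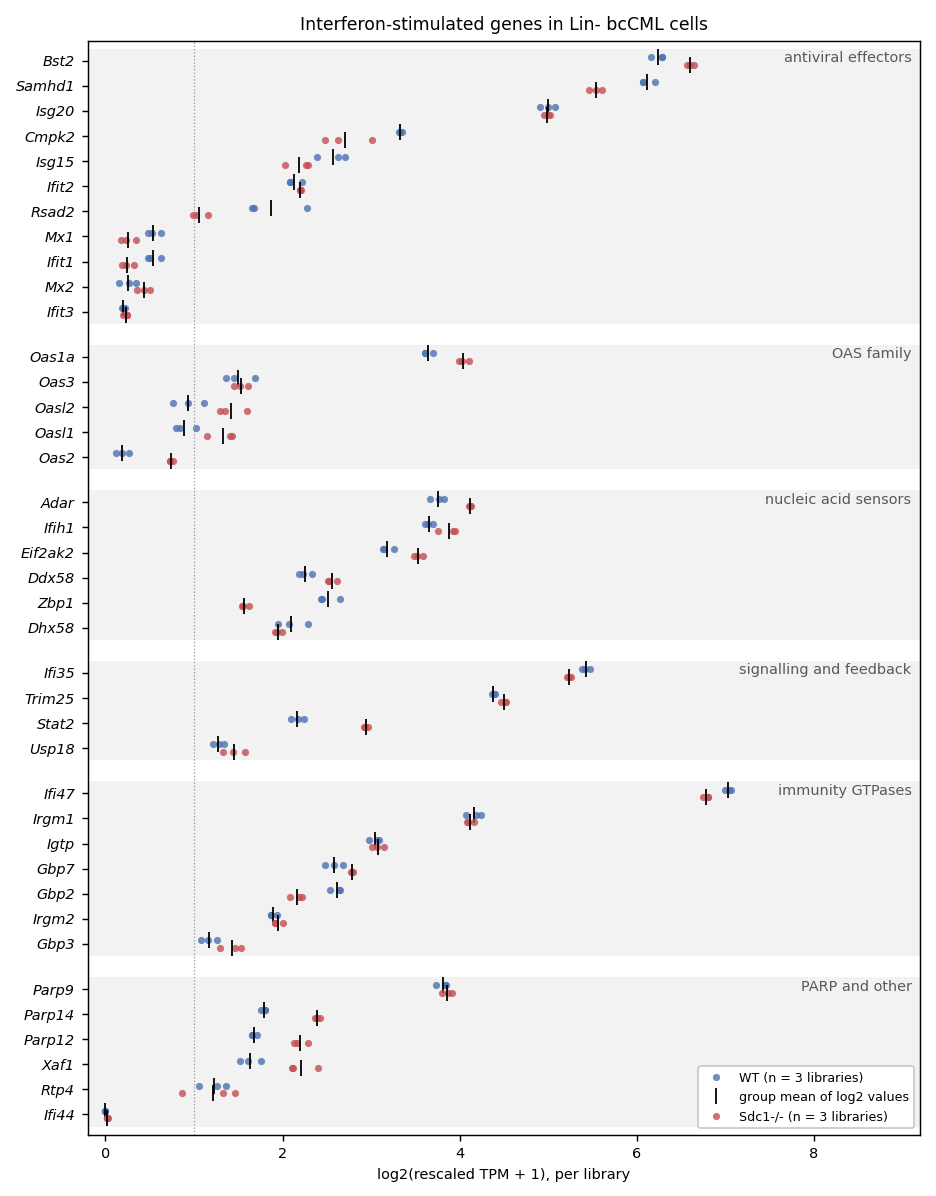
Each point is the value of 1 library as log2(rescaled TPM + 1) on the horizontal axis for each of the 39 genes, with WT in blue, Sdc1-/- in red, a black bar at each group's mean of 3 libraries, and a dotted line at a value of 1 on that axis, which is a rescaled TPM of 1. Ifi47, Bst2 and Samhd1 sit at the right with values from 43.0 to 132, Stat2 and Zbp1 show wide gaps between the groups, and 6 genes lie below a mean of 1.

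The genes differed widely in level. The highest were Ifi47, at 107 to 132 over the 6 libraries, Bst2 at 70.4 to 98.7, Samhd1 at 43.0 to 72.6, Ifi35 at 36.0 to 43.5 and Isg20 at 29.1 to 32.8. In all, 11 genes had a mean of at least 10, 22 lay between 1 and 10, and 6 were below 1. The median of the means was 4.31 over the 33 tested genes, where it was 14.3 over all tested genes. Of these 5 genes Bst2 rose, Ifi47, Samhd1 and Ifi35 fell, and Isg20 did not pass. The summed value of the 39 genes stayed close between the groups without overlapping, at 501 to 518 in WT and 498 to 499 in Sdc1-/-. The library sums were also lower in Sdc1-/-, at 944973 to 951814 against 1048875 to 1058263 in WT. The direction of the small gap in the summed value therefore depends on the scaling.

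**Figure D2:**
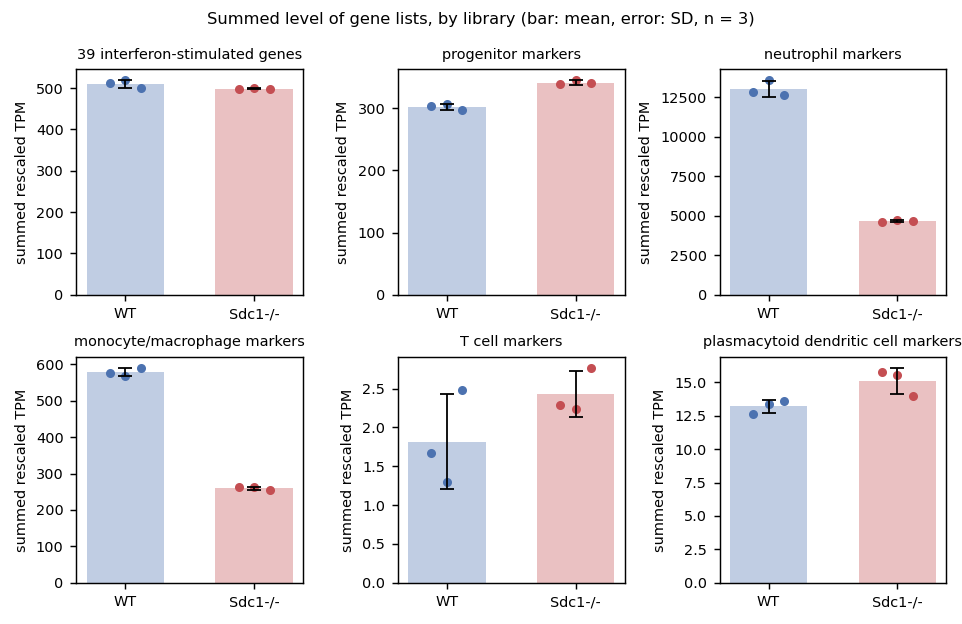
Bars give the mean and error bars the SD of the summed rescaled TPM over 3 libraries per group for the 39 interferon-stimulated genes and 5 marker lists, with points for single libraries and each vertical axis starting at 0. The sums of the 39 genes lie at 498 to 518 in all 6 libraries, while the neutrophil and monocyte marker sums are lower in Sdc1-/- and the progenitor marker sum is higher.

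Promoters were searched for letters like those of the interferon-stimulated response element. Windows from 250 bases before to 50 bases after the start site (RefSeq, build GRCm38.p6) were found for 30 of the 39 genes. The pattern GAAA, any 2 bases, GAAA was searched on both strands. It occurred in windows of 17 of the 30 genes (56.7%) and of 3.99% of all 27025 genes with a window of that length. The motif was present in 8 of the 14 higher genes with a window and in 3 of the 7 lower ones, so it occurred on both sides. A stricter pattern with C as the first of the 2 free bases, contained in the first pattern, was found in 12 of the 30 genes and in 0.792% of all genes with a window. It was present in 6 of the 14 higher genes, 1 of the 7 lower genes and 3 of the 6 uncalled genes, and this split was not tested. The GAS-like pattern TTC, any 3 bases, GAA was found in 11 of the 30 genes and in 9.55% of all genes with a window. It overlapped the first motif in 1 gene, Bst2. Sites are shown for genes that moved in opposite directions. First come all 3 lower genes with the motif, then the 5 higher ones whose motif begins before the start site. Each is written 5′ to 3′ along the gene's strand, with the motif in capitals (the first pattern or its reverse complement, overlapping occurrences joined):
Isg15: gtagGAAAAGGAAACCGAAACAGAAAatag
Rsad2: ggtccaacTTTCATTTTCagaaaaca
Gbp2: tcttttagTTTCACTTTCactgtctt
Stat2: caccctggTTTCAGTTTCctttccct
Bst2: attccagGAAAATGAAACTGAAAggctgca
Oas1a: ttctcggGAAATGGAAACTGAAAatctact
Gbp3: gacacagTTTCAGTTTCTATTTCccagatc
Gbp7: gtgtgcagTTTCAGTTTCagttctcc

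The Isg15 run (chr4:156200871-156200900, minus strand) holds 3 overlapping occurrences, the first beginning 78 bases before the start site. Those of Rsad2 (chr12:26456555-26456580, minus strand) and Gbp2 (chr3:142620596-142620621, plus strand) begin 120 and 59 bases before it. Among higher genes the distances were 222 bases for Stat2 (chr10:128270268-128270293, plus strand), 130 for Bst2 (chr8:71537580-71537609, minus strand) and 20 for Oas1a (chr5:120907523-120907552, minus strand). On chromosome 3, Gbp3 (chr3:142559992-142560021, plus strand) and Gbp7 (chr3:142530275-142530300, plus strand) hold theirs at 45 and 53 bases. The higher genes Ddx58, Eif2ak2 and Ifih1, not shown, hold the motif after the start site, beginning at bases 3, 19 and 33. A match of letters is a description of the sequence, and binding was not measured here.

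Antiviral effectors, the proteins that block steps of the viral life cycle, were the group with most lower genes. Of 7 tested, 4 were lower, 1 was higher and 2 did not pass. Beside this and the group counts below, 29.3% of all tested genes were higher and 31.3% lower. The groups are small, so their counts are not by themselves results about them. Samhd1 encodes an enzyme that degrades deoxynucleotides. It stood at 66.2, 72.6 and 66.4 in WT and 43.0, 47.8 and 45.4 in Sdc1-/-, 1.51-fold lower by the means (log2 fold change -0.58 ± 0.054 SE, limma adjusted p = 0.00011). Rsad2, which encodes viperin, was at 2.19, 3.85 and 2.14 in WT and 0.989, 1.23 and 1.03 in Sdc1-/-. Its fall was the largest of the effectors (log2 fold change -0.81 ± 0.17 SE, limma adjusted p = 0.0055), and the WT group was uneven, with the library WT 2 well above the other two.

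The neighbour of Rsad2 fell as well. Cmpk2, which encodes a mitochondrial nucleotide kinase, lies beside it on chromosome 12 (chr12:26469204-26479837, plus strand, against chr12:26442746-26456452, minus strand, in GENCODE M21 on GRCm38). Cmpk2 was at 8.92, 9.19 and 9.0 in WT and 7.03, 4.57 and 5.15 in Sdc1-/- (log2 fold change -0.63 ± 0.13 SE, limma adjusted p = 0.0045). The WT libraries were close together and the Sdc1-/- libraries spread, all below them. Isg15 encodes the ubiquitin-like protein that is attached to other proteins during an interferon response. It was at 5.16, 4.24 and 5.53 in WT and 3.79, 3.06 and 3.88 in Sdc1-/- (log2 fold change -0.38 ± 0.11 SE, limma adjusted p = 0.018). The groups of Isg15 lay close to each other, and its call was lost without WT 1, WT 3 or Sdc1-/- 2 (adjusted p = 0.055, 0.060 and 0.056).

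Bst2 was the effector that rose. It encodes tetherin, which holds budding virions at the cell surface, and stood at 77.1, 76.7 and 70.4 in WT and 98.7, 93.9 and 96.3 in Sdc1-/- (log2 fold change 0.36 ± 0.044 SE, limma adjusted p = 0.00039). Isg20, an exonuclease of RNA, was at 32.8, 29.1 and 31 in WT and 31.5, 29.95 and 30.8 in Sdc1-/-. It had means of 30.9 ± 1.9 (SD, n = 3) in WT and 30.8 ± 0.78 (SD, n = 3) in Sdc1-/-, with a 95% interval of the log2 fold change from -0.13 to 0.11. Ifit2, an RNA-binding inhibitor of translation, had means of 3.38 ± 0.23 (SD, n = 3) and 3.60 ± 0.023 (SD, n = 3), with an interval from -0.08 to 0.22. Both intervals leave room for a small change in either direction.

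The other 4 effectors lay below the minimum mean and were not tested in the main comparison. Ifit1 was at 0.413, 0.545 and 0.395 in WT and 0.248, 0.134 and 0.174 in Sdc1-/-. Mx1, a dynamin-like GTPase against influenza viruses, was at 0.394, 0.543 and 0.436 in WT and 0.131, 0.275 and 0.176 in Sdc1-/-. Both had all Sdc1-/- libraries below all WT libraries, and with no minimum mean limma called both as lower (adjusted p = 0.012 for Ifit1 and 0.016 for Mx1). Mx2 lay the other way, at 0.206, 0.269 and 0.112 in WT and 0.282, 0.354 and 0.413 in Sdc1-/-, and did not pass although its groups did not overlap (adjusted p = 0.085). Ifit3 was at 0.138 to 0.163 in WT and 0.151 to 0.185 in Sdc1-/-, with overlapping groups. Ifit3 shares 61.8% of the 31-base words of its transcripts with other genes, all of these with its copy Ifit3b, so its reads cannot be firmly placed. Among all genes above 0 with a mean below 1, the groups did not overlap in 21.5%, beside 5 of the 6 such genes here (Ifit1, Mx1, Mx2, Oas2 and Ifi44).

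The listed genes of the OAS family, whose active members make the 2-5A signal that activates RNase L, had calls in 1 direction only. Of 4 tested, 3 were higher and none was lower, beside 29.3% higher and 31.3% lower over the whole table. So few genes, of which Oasl1 and Oasl2 passed the minimum only through Sdc1-/-, do not show a trait of the family. Oas1a was at 11.2, 11.2 and 11.9 in WT and 15.2, 16.2 and 14.9 in Sdc1-/- (log2 fold change 0.40 ± 0.049 SE, limma adjusted p = 0.00041). Of the 31-base words of Oas1a, 68.8% also occur in other genes, nearly all in Oas1g, so the split between these copies is uncertain. Oas1g was higher too, at 1.29 ± 0.26 (SD, n = 3) in WT and 3.31 ± 0.18 (SD, n = 3) in Sdc1-/-. Of the IFIT and OAS relatives outside the list, 3 were tested, Oas1g among them, with 2 higher and 1 lower (limma log2 fold change -0.52). The near copies of Ifit1 and Ifit3 lay below the minimum mean, so the lower gene was a near copy of Oas1a. Relatives of the OAS genes thus moved in both directions.

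Oasl1, an OAS-like protein without that enzyme activity, was at 0.734, 1.04 and 0.787 in WT and 1.22, 1.64 and 1.69 in Sdc1-/- (log2 fold change 0.44 ± 0.11 SE, limma adjusted p = 0.011). Oasl2 was at 0.695, 1.16 and 0.910 in WT and 2.03, 1.56 and 1.44 in Sdc1-/- (log2 fold change 0.48 ± 0.13 SE, limma adjusted p = 0.013). Both are low genes, at about the level of the minimum mean, and the added pseudocount of 1 makes their fold changes understate the ratios of the means, which were 1.78 for Oasl1 and 1.82 for Oasl2. Their WT means, 0.852 for Oasl1 and 0.921 for Oasl2, lay below the minimum mean of 1. Both genes entered the test only through their Sdc1-/- values, so their calls are weak evidence of a rise. Oas3 had means of 1.84 ± 0.33 (SD, n = 3) and 1.88 ± 0.16 (SD, n = 3) and did not pass (limma adjusted p = 0.84). Oas2 lay below the minimum mean at 0.142, 0.0867 and 0.201 in WT and 0.659, 0.696 and 0.659 in Sdc1-/-. Its ratio of means, 4.68, was the largest of any of the 39 genes above 0 in both groups, and with no minimum mean it was called (log2 fold change 0.55, limma adjusted p = 0.00048).

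The group of nucleic acid sensors also holds Adar, an RNA editing enzyme that is not itself a sensor. In this group 4 of 6 genes were higher, Adar among them, and Zbp1 was lower, beside 29.3% higher and 31.3% lower over the whole table. Zbp1, a sensor of left-handed nucleic acid that can trigger necroptosis, had the largest fall of the 33 tested genes on the log2(value + 1) scale. It stood at 5.26, 4.45 and 4.40 in WT and 2.06, 1.91 and 1.93 in Sdc1-/-, 2.39-fold lower by the means (log2 fold change -0.94 ± 0.077 SE, limma adjusted p = 6.1e-05). The gap between its groups was far wider than the spread inside either of them. By the ratio of means Rsad2 fell more (2.52-fold), and with a pseudocount of 0.1 both genes had a log2 fold change of -1.21.

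Adar, which edits double-stranded RNA and so keeps it from the sensors, rose from 11.7, 12.6 and 13.2 in WT to 16.3, 16.5 and 16.3 in Sdc1-/- (log2 fold change 0.36 ± 0.050 SE, limma adjusted p = 0.00072). Of its exon bases, 16.8% overlap Chrnb2 on the other strand, a gene with a mean value of 0.336. Eif2ak2 encodes PKR, which stops translation on binding double-stranded RNA. It was at 7.84, 8.54 and 7.80 in WT and 10.2, 11 and 10.4 in Sdc1-/- (log2 fold change 0.35 ± 0.053 SE, limma adjusted p = 0.0012). Ddx58, which encodes RIG-I, was at 3.56, 3.68 and 4.04 in WT and 4.76, 5.12 and 4.72 in Sdc1-/- (log2 fold change 0.30 ± 0.063 SE, limma adjusted p = 0.0051). These 3 genes thus had similar ratios of means, 1.31 for Adar, 1.31 for Eif2ak2 and 1.29 for Ddx58.

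The remaining RIG-I-like receptors moved less. Ifih1, which encodes MDA5, was at 11.1, 12 and 11.5 in WT and 12.5, 14.2 and 14.4 in Sdc1-/- (log2 fold change 0.22 ± 0.062 SE, limma adjusted p = 0.017). The lowest Sdc1-/- library was close to the highest WT library, and the call of Ifih1 was lost without WT 1, Sdc1-/- 2 or Sdc1-/- 3 (adjusted p = 0.054, 0.062 and 0.056). Dhx58, which encodes LGP2, had means of 3.30 ± 0.52 (SD, n = 3) in WT and 2.86 ± 0.11 (SD, n = 3) in Sdc1-/- and did not pass (log2 fold change -0.15 ± 0.094 SE, limma adjusted p = 0.21).

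Of the 4 genes of signalling and feedback, 2 were higher and 1 was lower. Stat2, the subunit of ISGF3 that carries the activation domain, had the largest rise of the 33 tested genes on the log2(value + 1) scale. It was at 3.50, 3.26 and 3.72 in WT and 6.61, 6.83 and 6.59 in Sdc1-/-, 1.91-fold by the means (log2 fold change 0.77 ± 0.058 SE, limma adjusted p = 4.1e-05). Every Sdc1-/- library was above every WT library by more than the whole range within either group.

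Trim25, a ubiquitin ligase that activates RIG-I, was at 20.0, 19.6 and 19.8 in WT and 21.1, 22.0 and 21.8 in Sdc1-/-, a small rise (log2 fold change 0.12 ± 0.035 SE, limma adjusted p = 0.022). Its call was lost without WT 2, WT 3, Sdc1-/- 2 or Sdc1-/- 3 (adjusted p = 0.055 to 0.081). Ifi35 was at 43.5, 40.7 and 41.6 in WT and 37.1, 36.0 and 36.7 in Sdc1-/- (log2 fold change -0.19 ± 0.037 SE, limma adjusted p = 0.0035). With each library set to a sum of 1000000, Ifi35 no longer passed (log2 fold change -0.05, adjusted p = 0.29), and 16.8% of its exon bases overlap an antisense gene on the other strand. Usp18, which removes ISG15 from proteins and blocks IFNAR2 signalling, had means of 1.42 ± 0.10 (SD, n = 3) and 1.74 ± 0.23 (SD, n = 3) and did not pass (limma adjusted p = 0.13).

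The immunity GTPases, which act at the membranes around intracellular microbes, showed 2 higher, 2 lower and 3 uncalled genes of 7. Ifi47, the most abundant of the 39 genes, was at 130, 132 and 127 in WT and 111, 110 and 107 in Sdc1-/- (log2 fold change -0.25 ± 0.031 SE, limma adjusted p = 0.00048). The fall was narrow but larger than the spread in either group. It shrank to -0.10 with each library set to a sum of 1000000, where it still passed (adjusted p = 0.020).

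Guanylate-binding proteins that sit side by side on chromosome 3 did not move together. Gbp2 (chr3:142620602-142638008) was at 4.8, 5.28 and 5.23 in WT and 3.25, 3.54 and 3.64 in Sdc1-/- (log2 fold change -0.45 ± 0.063 SE, limma adjusted p = 0.00080). Gbp3 (chr3:142560026-142573209) was at 1.11, 1.23 and 1.40 in WT and 1.90, 1.44 and 1.77 in Sdc1-/- (log2 fold change 0.26 ± 0.095 SE, limma adjusted p = 0.045). Gbp7 (chr3:142530342-142550149) was at 5.0, 5.42 and 4.57 in WT and 5.89, 5.96 and 5.85 in Sdc1-/- (log2 fold change 0.21 ± 0.064 SE, limma adjusted p = 0.028). All 3 lie on the plus strand and carry the motif shown above. Gbp2 kept its call in every alternative that tested it. The call of Gbp3 was lost when any 1 library other than Sdc1-/- 2 was left out (adjusted p = 0.050 to 0.13), and that of Gbp7 when any 1 library other than WT 2 was left out (adjusted p = 0.060 to 0.081). Of the 31-base words of Gbp7, 14.7% also occur in other genes, most of them in the pseudogene Gm43802. This pseudogene overlaps 11.3% of the exon bases of Gbp7 on the same strand and had a mean value of 2.69.

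The immunity-related GTPases Igtp, Irgm1 and Irgm2 did not pass. Igtp had means of 7.24 ± 0.36 (SD, n = 3) in WT and 7.42 ± 0.39 (SD, n = 3) in Sdc1-/-, Irgm1 of 16.9 ± 1.1 and 16.3 ± 0.55, and Irgm2 of 2.71 ± 0.093 and 2.85 ± 0.16. The 95% intervals of their log2 fold changes ran from -0.11 to 0.17 for Igtp, -0.18 to 0.08 for Irgm1 and -0.10 to 0.20 for Irgm2. Igtp and Irgm2 overlap on the same strand and share 326 of the 31-base words, so reads there can be assigned to either.

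In the last group, 3 of 5 tested genes were higher and none was lower, beside 29.3% higher and 31.3% lower over the whole table. Parp14, which attaches single ADP-ribose units to proteins, was at 2.5, 2.48 and 2.39 in WT and 4.17, 4.22 and 4.35 in Sdc1-/- (log2 fold change 0.60 ± 0.055 SE, limma adjusted p = 0.00010). Parp12, a related enzyme, was at 2.14, 2.29 and 2.15 in WT and 3.38, 3.88 and 3.47 in Sdc1-/- (log2 fold change 0.52 ± 0.068 SE, limma adjusted p = 0.00057). Xaf1, a binding partner of the apoptosis inhibitor XIAP, was at 2.37, 2.05 and 1.87 in WT and 4.27, 3.35 and 3.29 in Sdc1-/- (log2 fold change 0.58 ± 0.10 SE, limma adjusted p = 0.0025). By the means the ratios were 1.73 for Parp14, 1.63 for Parp12 and 1.74 for Xaf1, among the largest rises of the 39 genes.

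Parp9, Rtp4 and Ifi44 gave no call. Parp9, the partner of the ubiquitin ligase DTX3L, had means of 13.0 ± 0.61 (SD, n = 3) and 13.5 ± 0.54 (SD, n = 3), with a 95% interval of the log2 fold change from -0.07 to 0.17. Rtp4, a chaperone of cell surface receptors, ranged from 0.820 to 1.76 in Sdc1-/- and from 1.08 to 1.58 in WT, the most uneven of the uncalled genes, with an interval from -0.41 to 0.39. Ifi44 was listed at 0 in all 3 WT libraries and at 0.00985, 0.0133 and 0.0233 in Sdc1-/-, levels too low to read.

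**Figure D3:**
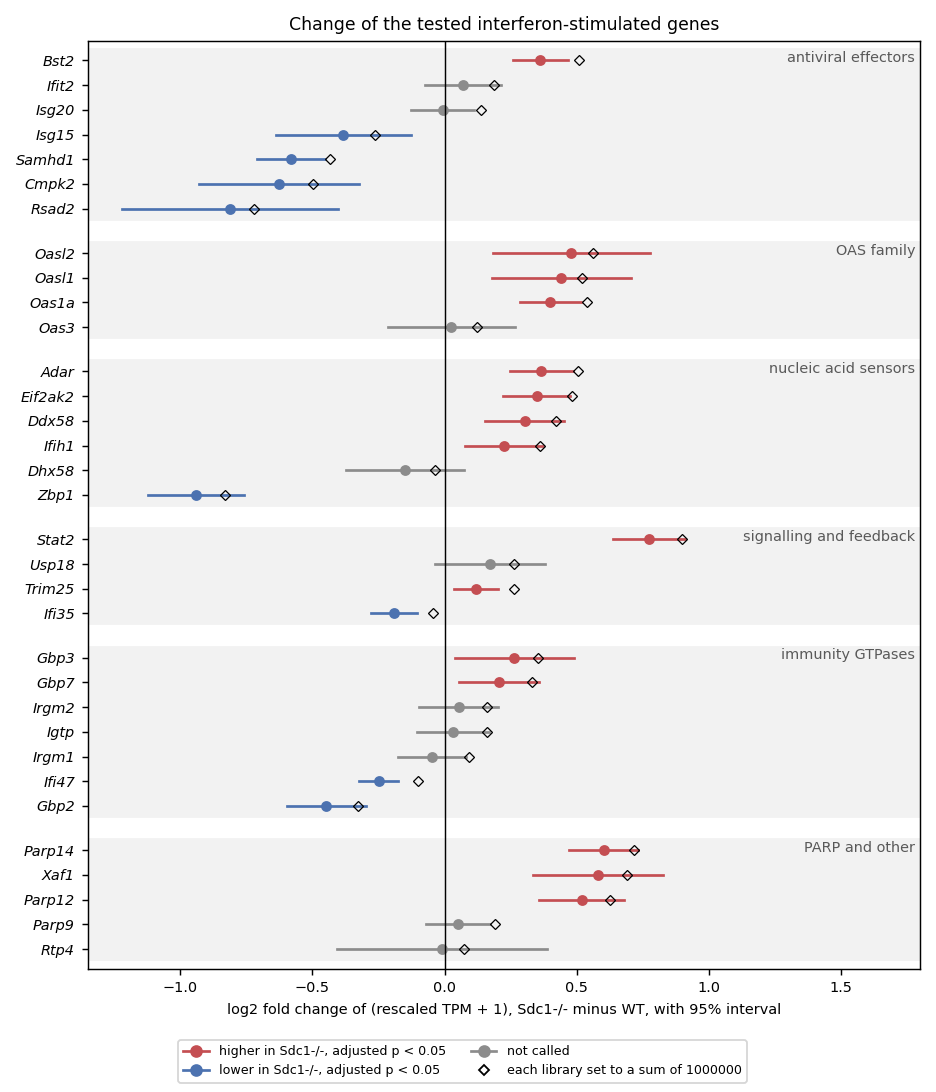
Points give the log2 fold change of (rescaled TPM + 1), Sdc1-/- minus WT, for the 33 tested genes in blocks by role, with 95% intervals from limma, coloured by the call, and open diamonds give the change with each library set to a sum of 1000000. The changes run from -0.94 for Zbp1 to 0.77 for Stat2, no block apart from the OAS family and the PARP and other genes is without a lower gene, and the diamonds lie to the right of the points, changing sign for the uncalled Isg20, Irgm1 and Rtp4.

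The calls of the larger changes did not depend on 1 library. Of the 23 calls, 17 held under every alternative in which the gene was tested, 11 higher and 6 lower. Across the 6 fits that left out 1 library each, 11 to 13 of the genes were called higher and 7 or 8 lower. Over the whole table those fits called 3083 to 3353 genes higher and 3380 to 3608 lower. The one setting that shifted all genes was the scaling. With each library set to a sum of 1000000, the midpoint of the changes over the whole table shifted from -0.01 to 0.12 (median log2 fold change) and that of these genes from 0.07 to 0.19. Then 20 of them were called higher and 6 lower, beside 5290 higher and 2367 lower genes over the whole table, and the lower share of their calls went from 34.8% to 23.1%. Isg15 and Ifi35 lost their calls there, and Ifit2, Isg20, Usp18, Igtp and Parp9 were called as higher.

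**Figure D4:**
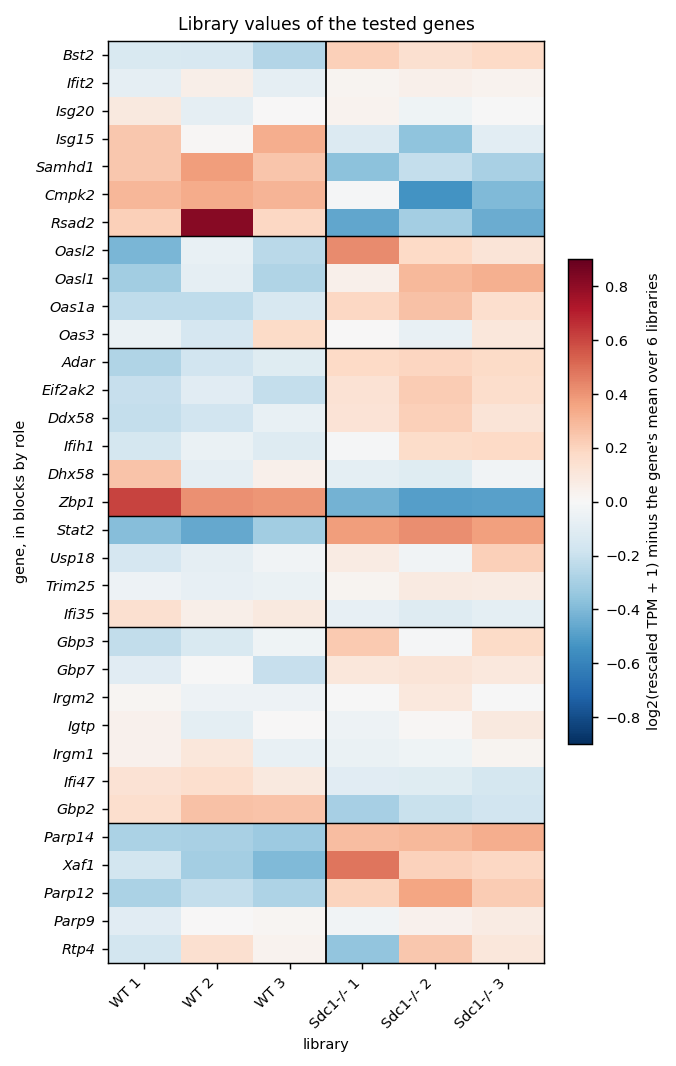
The colour gives each library's log2(rescaled TPM + 1) minus the gene's mean over the 6 libraries, for the 33 tested genes in rows in blocks by role and the 6 libraries in columns, with a vertical line between WT and Sdc1-/-. Zbp1, Rsad2, Cmpk2 and Samhd1 are red in the WT columns and blue in the Sdc1-/- columns, Stat2, Parp14, Parp12 and Xaf1 are the reverse, and Rsad2 in WT 2 has the deepest red.

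The other genes of the pathway were read from a list of 42, of which 26 were tested: 8 were higher, 11 were lower and 7 did not pass, a called share of 73.1% beside 60.7% over the whole table, with a median log2 fold change of -0.11. Interferon genes themselves were nearly silent. Of 11 ligand genes 8 (Ifna1, Ifna2, Ifna4, Ifna5, Ifne, Ifnk, Ifnl2 and Ifnl3) were listed at 0 in all 6 libraries, and no value was above 0.103. Ifnb1 was at 0.0316 and 0.0412 in 2 WT libraries and at 0 in the other 4 libraries, and Ifng was above 0 only in WT 1, at 0.0974. Ifnz was listed at 0 in all 3 WT libraries and at 0.0227, 0.0296 and 0.103 in Sdc1-/-.

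Receptors for interferon gamma were lower. Ifngr1 was at 124, 135 and 135 in WT and 84.1, 88.7 and 88.4 in Sdc1-/- (log2 fold change -0.59 ± 0.043 SE, limma adjusted p = 3.6e-05). Ifngr2 fell from 18.5 ± 0.68 (SD, n = 3) to 12.4 ± 1.7 (SD, n = 3) (limma log2 fold change -0.55, adjusted p = 0.0017). Of the type I receptor, Ifnar2 was lower, at 42.8 ± 2.4 (SD, n = 3) in WT and 35.6 ± 0.73 (SD, n = 3) in Sdc1-/- (limma log2 fold change -0.26, adjusted p = 0.0024), a call lost with each library set to a sum of 1000000 (adjusted p = 0.072). Ifnar1, its partner, had means of 9.995 and 9.63 and did not pass (limma adjusted p = 0.47), nor did Il10rb, shared by interferon lambda and interleukin-10 (means of 36.8 and 33.7, limma adjusted p = 0.15). Ifnlr1, the other chain of the interferon lambda receptor, was below the minimum mean, at 0.223 to 0.245 in WT and 0.0601 to 0.1004 in Sdc1-/-.

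Behind the receptors, all 7 kinases and transcription factors listed were called, 4 as higher and 3 as lower, in a table where 60.7% of all genes were called. Irf9, singled out after its values were seen as the partner of Stat2 in ISGF3, was at 15.3 ± 0.33 (SD, n = 3) in WT and 17.8 ± 0.36 (SD, n = 3) in Sdc1-/- (limma log2 fold change 0.21, adjusted p = 0.0028). Its rise was smaller than the 0.77 of Stat2. Irf3, which switches on interferon beta downstream of the sensors, went from 38.1 ± 4.0 (SD, n = 3) to 68.0 ± 1.2 (SD, n = 3) and had the largest rise on the list (limma log2 fold change 0.82, adjusted p = 8.7e-05). Tyk2 was higher (log2 fold change 0.45) and so was Irf1 (0.34).

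Irf7, which amplifies the type I response and is itself interferon-induced, was lower, at 4.29 ± 0.15 (SD, n = 3) in WT and 2.87 ± 0.26 (SD, n = 3) in Sdc1-/- (limma log2 fold change -0.45, adjusted p = 0.0012). The kinase Jak1, also chosen after its values were seen, was lower as well (71.0 and 53.6 by the means, log2 fold change -0.40, limma adjusted p = 5.7e-05). Among genes of sensing, Tmem173, which encodes STING, had the largest fall on the list (9.09 and 5.23 by the means, log2 fold change -0.70, limma adjusted p = 7.1e-05), and the Toll-like receptor adaptor Myd88 fell from 78.9 to 57.4 (log2 fold change -0.45, limma adjusted p = 0.00026). Cgas, the DNA sensor that signals through STING, was higher (4.30 and 5.56 by the means, log2 fold change 0.31, limma adjusted p = 0.0022). Usp15, a deubiquitinase counted here with the inhibitors, was higher at 81.6 against 58.5 (log2 fold change 0.47, limma adjusted p = 0.00023).

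**Figure D5:**
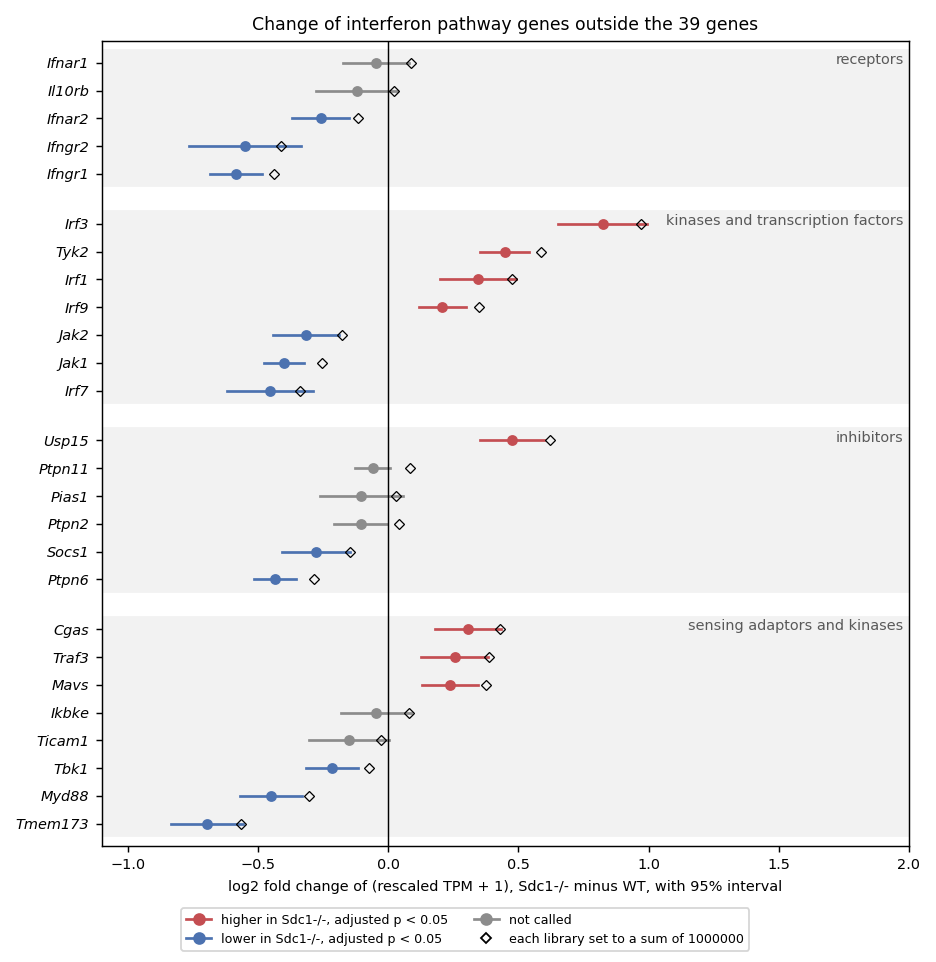
Points give the log2 fold change of (rescaled TPM + 1), Sdc1-/- minus WT, for the 26 tested pathway genes outside the 39, in blocks by role, with 95% intervals from limma and open diamonds for each library set to a sum of 1000000. The largest values are 0.82 for Irf3 and -0.70 for Tmem173, 3 of 5 receptors are lower, and the diamonds of Ifnar1, Il10rb and some other uncalled genes lie on the other side of 0 from their points.

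A further 62 interferon-induced genes outside the 39 were listed by symbol. Of these 60 were matched and 36 tested, with 15 higher, 11 lower and 10 not called, a called share of 72.2% beside 60.7% over the whole table, and a median log2 fold change of 0.04. Both directions occurred there too, beside a median of -0.01 for all tested genes. The largest rises were of Nlrc5, the activator of MHC class I genes, from 1.24 ± 0.096 (SD, n = 3) to 3.47 ± 0.078 (SD, n = 3) (limma log2 fold change 1.00, adjusted p = 2.3e-05), then Oas1g (0.92), Ifi203 (0.76), Uba7 (0.73) and Parp11 (0.68). The largest falls were of Ccl5, a chemokine, from 39.6 ± 1.2 (SD, n = 3) to 10.2 ± 1.7 (SD, n = 3) (limma log2 fold change -1.87, adjusted p = 1.1e-05), then Slfn1 (-1.24), Slfn2 (-0.99), Tor3a (-0.58) and Gvin1 (-0.58). Ifi203, Slfn1, Slfn2 and Gvin1 have close relatives in the genome, so reads may be split between copies there.

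Genes of the enzymes that attach ISG15 gave different values. Uba7, which activates ISG15, was at 29.0, 26.9 and 26.9 in WT and 44.1, 49.2 and 45.8 in Sdc1-/- (limma adjusted p = 3.3e-05). Ube2l6, the conjugating enzyme, chosen with Herc6 after its values were seen, was lower at 30.4, 31 and 27.8 in WT and 21.0, 19.7 and 21.8 in Sdc1-/- (log2 fold change -0.49, limma adjusted p = 0.00031). Herc6, the ligase, ranged from 4.23 to 5.21 in WT and from 3.48 to 6.74 in Sdc1-/- and did not pass (limma adjusted p = 0.53).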

How the data were processed

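Lin- bcCML cells were profiled in 3 WT and 3 Sdc1-/- libraries (stranded mRNA kit, single-end reads). The authors ran kallisto, collapsed its output to gene level and tested with sleuth. Version 0.30.0 of sleuth and build mm10 are from the submitters' processing notes. The deposited signal values are named TPM, but library sums of 944973 to 1058263 show that the authors rescaled them between libraries, so they were treated as a normalized signal, not as plain TPM or counts as the design had assumed. A second deposited table holds the authors' own p-values, q-values and effect sizes and was not used.

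Groups came from the labels. Values were taken as log2(value + 1), genes with a mean below 1 were left out, and 12155 genes were tested with limma 3.58.1 in R 4.3.3, with group as the only term, empirical Bayes with a variance trend and Benjamini-Hochberg adjustment at 0.05. On simulated data for WT against Sdc1-/- over 12155 genes, 189 of 200 genes shifted by 1 on the log2 scale were recovered (94.5%), with 6 false calls. The simulated spread was that of the libraries within their groups. The changes of the 33 tested genes ran from -0.94 to 0.77, and recovery of shifts below 1 was not simulated. Errors are SD over libraries or SE of the fit. The 3 Sdc1-/- values of a gene were called not overlapping where all lay above or below all WT values. Shared sequence was counted as 31-base words in GENCODE M21 transcripts. Promoter windows were RefSeq's. Motif letters were searched on both strands.

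The 39 genes, the other gene lists and the marker lists were chosen with earlier results of these data known. All 39 are named. Called genes and the 5 highest have values by library, and from the other lists the up to 5 largest rises and falls among called genes, the ligands and the receptors are named. In all, 15 alternatives were tried: pseudocounts of 0.1 and 0.5, no minimum mean or a minimum of 5, 3 other scalings, no variance trend, a replicate block, and each library left out in turn. One gene was left out of the pathway list and is not reported here.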

Additional observations from a re-analysis of the deposited data

How the results depend on the processing

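With a minimum mean of 5 only 16 of the 39 genes could be tested, and 12 were called, 8 higher and 4 lower. Of the 8966 genes tested over the whole table at that setting, 2825 were higher and 3082 lower. Of the further interferon-induced genes 15 were then called, 6 higher. With no minimum mean 17 of those were lower, beside 4091 of 24714 genes over the whole table. Setting each library to a sum of 1000000 left 2367 lower genes in the whole table. It also changed the sign of Isg20 (0.14), Irgm1 (0.092) and Rtp4 (0.074), and quantile normalization that of Rtp4 (0.030). None of these 3 was called in the main comparison, and the cause was not tested. Leaving out 1 library at a time also changed signs among uncalled genes, with log2 fold changes of -0.051 to 0.035 for Isg20, -0.042 to 0.12 for Oas3, -0.0047 to 0.062 for Igtp and -0.13 to 0.17 for Rtp4. Isg15 and Gbp7 also lost their calls with no minimum mean, and Gbp3 there and with the replicate block. All other called genes passed in each alternative that tested them, apart from those named in the report.

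The labels number the libraries 1 to 3 in both groups, but the numbers did not pair them. Deviations from the group means correlated at 0.15, -0.01 and 0.02 for equal numbers, and WT 2 correlated most with Sdc1-/- 3 (0.14). With the replicate block, 14 of the 39 genes were higher and 8 lower, with Gbp3 lost (limma adjusted p = 0.065), and 3653 and 3971 genes in the whole table. The rescaled values carry no read depth, so the counting error of the low genes is unknown.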
